A study of Mus musculus with 9 samples.

Results

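The genes described here are 40 genes of the type I interferon response, chosen by name as rows of the deposited expression tables. Of the 40, 39 had a row among the 24318 genes in each table, and Rnf213 was not analysed here. Members with a mean below 1 FPKM over the 9 libraries were counted as not expressed, where FPKM is fragments per kilobase of transcript, scaled to library size, and so a level per length. This left 26 expressed members and 13 below the limit. In all, 10534 of the 24318 genes (43.3%) reached a mean of 1 FPKM.

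The data were RNA-seq libraries of polyA RNA from a cultured mouse cell line, 9 in all, with 3 in each of 3 groups. Vehicle cells were treated with vehicle, CON-BDEV cells with brain-derived extracellular vesicles whose library names read EV Saline, and SE-BDEV cells with vesicles whose library names read EV Pilo. Extracellular vesicles are membrane-bound particles that cells release and that other cells take up, and SE stands for status epilepticus, a prolonged seizure, in the title of the series. All 3 groups share 1 cell line with no genetic change named, and the dose, the length of exposure and the source animals of the vesicles are not given in the sources used here.

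The series text names the cells as BV2, an immortalised mouse microglial line, but the cell line label says N2a, a mouse neuroblastoma line. Of 14 microglia and macrophage markers, 12 reached 1 FPKM, and the highest, Cd68, averaged 740 FPKM. Of 15 neuroblastoma and neuron markers, 1 did so (Elavl4, at 3.92 FPKM), and Th, Dbh and Mycn were at 0 in all 9 libraries. The markers thus go against the N2a label. P2ry12 and Cx3cr1, receptors of resident microglia in the brain, stayed under 1 FPKM, at 0.0142 and 0.122 FPKM. Summed FPKM of a library ran from 600196 to 625660, and depth estimated from the smallest steps between low values ran from 29200000 to 33800000 fragments. The labels do not say whether replicates are separate cultures, so each p-value covers only how these libraries scatter, and that scatter can be technical. In bulk RNA of this kind, fewer cells of a type and less RNA per cell cannot be told apart.

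Type I interferons are secreted proteins that warn cells of infection. They bind a receptor made of Ifnar1 and Ifnar2, whose kinases Jak1 and Tyk2 activate transcription factors. Among these, Stat2 acts with Irf9 in a complex that binds a DNA element called the ISRE in front of many antiviral genes. In microglia, a low tonic signal through this receptor keeps part of the program on, and the program rises in infection, injury and ageing of the brain.

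The promoters of Ifitm3 and Oas1a are printed because these genes carried calls against Vehicle. Those of Ifitm2 and Oas1g are printed because they are relatives of these genes and carried none. Sequences and promoter positions are from RefSeq (GRCm38.p6), 5′ to 3′ on the gene's strand. Each run holds the 250 bases before the start site and 30 bases from it on, a length of 280. All 4 genes lie on the minus strand. Capitals mark matches to the ISRE core, spelled as GAAA, any 2 bases and GAAA again, searched on both strands.
Ifitm3, chr7:141010715-141010994: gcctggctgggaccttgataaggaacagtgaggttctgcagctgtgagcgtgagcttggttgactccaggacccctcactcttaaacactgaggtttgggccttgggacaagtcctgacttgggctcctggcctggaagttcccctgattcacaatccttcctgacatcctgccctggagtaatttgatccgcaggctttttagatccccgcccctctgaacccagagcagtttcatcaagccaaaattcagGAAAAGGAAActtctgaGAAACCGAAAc
Ifitm2, chr7:140955932-140956211: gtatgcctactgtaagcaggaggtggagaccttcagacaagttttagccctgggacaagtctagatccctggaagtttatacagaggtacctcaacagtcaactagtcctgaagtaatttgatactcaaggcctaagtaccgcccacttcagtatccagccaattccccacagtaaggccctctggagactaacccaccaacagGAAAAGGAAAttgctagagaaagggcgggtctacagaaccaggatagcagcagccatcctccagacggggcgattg
Oas1a, chr5:120907496-120907775: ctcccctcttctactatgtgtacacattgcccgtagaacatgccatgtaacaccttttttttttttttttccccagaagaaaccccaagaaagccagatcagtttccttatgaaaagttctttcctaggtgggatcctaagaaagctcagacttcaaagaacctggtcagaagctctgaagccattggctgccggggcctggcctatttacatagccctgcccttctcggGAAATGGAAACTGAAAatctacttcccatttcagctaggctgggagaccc
Oas1g, chr5:120887584-120887863: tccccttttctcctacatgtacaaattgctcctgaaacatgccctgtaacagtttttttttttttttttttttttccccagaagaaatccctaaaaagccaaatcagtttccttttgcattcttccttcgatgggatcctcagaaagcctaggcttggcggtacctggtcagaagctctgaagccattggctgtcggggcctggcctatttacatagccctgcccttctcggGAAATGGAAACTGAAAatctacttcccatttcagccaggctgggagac

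Ifitm3 held 2 matches, at 2 to 11 and 19 to 28 bases after the annotated start (the start base being 0), and Ifitm2 held 1, at -46 to -37. Oas1a held 2 overlapping matches at -20 to -11 and -14 to -5, and Oas1g held 2 at -18 to -9 and -12 to -3, so that the capitals of this pair read the same. Over the whole 300-base windows of the table (250 bases before the start and 50 from it on), Oas1a and Oas1g were identical at 261 of 294 aligned positions (88.8%), and Ifitm2 and Ifitm3 at 183 of 226 (81.0%). Gap positions, which these shares leave out, numbered 12 and 148, so the Ifitm pair aligned over less of its length. Of the 32 members with a window in the table, Rnf213 included, 16 (50%) held an ISRE core, against 1079 of 27025 genes (3.99%). The share was 9 of 22 among expressed members (40.9%) and 7 of 9 among those below 1 FPKM (77.8%). The GAS core, spelled TTCNNNGAA, which reads the same on both strands and is another element of interferon signalling, was held by 11 of the 32 (34.4%) against 9.55% of all genes. All 11 were expressed members, and none of the 9 members below 1 FPKM held it. In Ifitm3 and in Bst2 a GAS core overlapped an ISRE core. Dhx58, Zbp1, Oas2, Mx1, Mx2, Usp18, Parp9 and Parp14 had no window in the table.

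**Figure D1:**
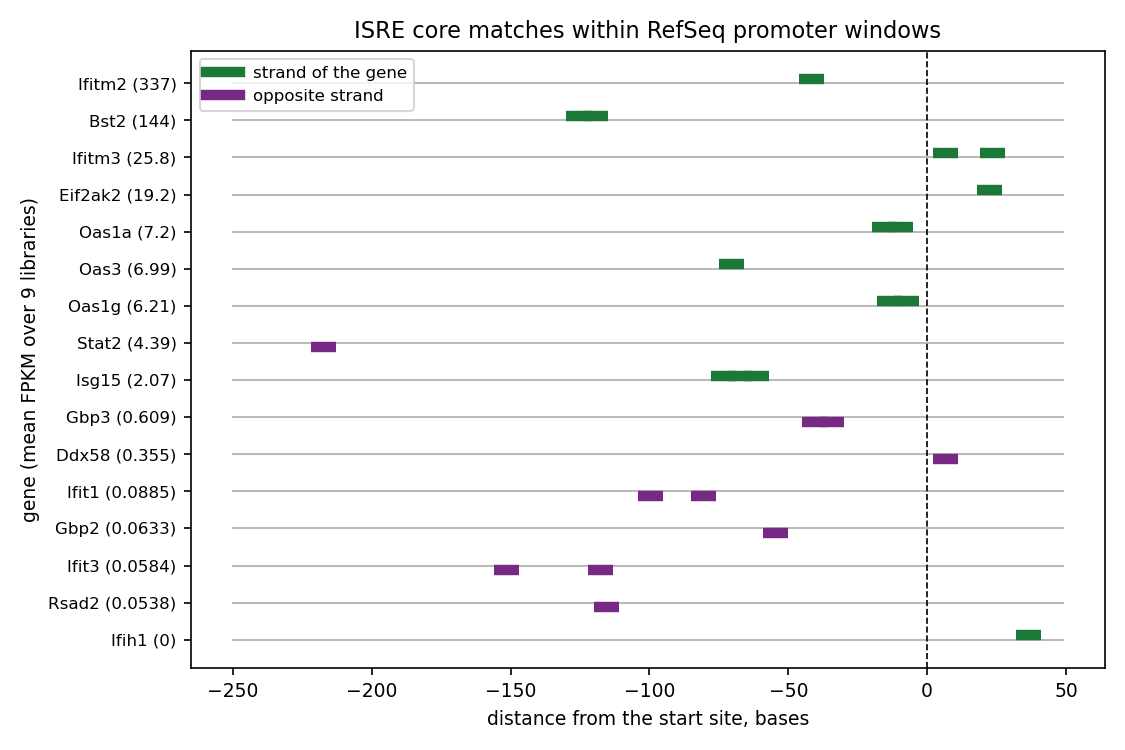
Matches to the ISRE core within the RefSeq promoter windows of the 16 members that hold one, ordered by mean FPKM (in brackets). The x axis is the distance from the annotated start in bases, and colour gives the strand of the match. Members with a mean of 0.609 FPKM and below stand in the lower 7 rows.

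The program was present at a low level. The median over the 26 expressed members was 6.8 FPKM, against 16.3 FPKM for all genes of at least 1 FPKM. A pair of membrane proteins made up 61.2% of the summed FPKM of expressed members. These were Ifitm2, a protein that blocks entry of viruses through endosomes, at a mean of 337 FPKM, and Bst2 (tetherin), which holds budding viruses at the cell surface, at 144 FPKM. A further 8 members had at least 10 FPKM and 16 lay between 1 and 10 FPKM. The receptor chains were at 12.3 FPKM (Ifnar1) and 40.6 FPKM (Ifnar2), and the transcription factors were lower, with Stat2 at 4.39 FPKM and Irf9 at 2.42 FPKM.

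Genes that are among the most strongly induced by interferon in other settings were low. Isg15, a ubiquitin-like protein, averaged 2.07 FPKM, Ifit1, which binds foreign RNA ends, 0.0885 FPKM, and Rsad2 (viperin), an enzyme that makes a chain-terminating nucleotide, 0.0538 FPKM. Irf7, the factor that amplifies interferon production, averaged 0.785 FPKM. Of the cytosolic RNA sensors, Ddx58 (RIG-I) averaged 0.355 FPKM and Ifih1 (MDA5) was listed at 0 in all 9 libraries. The members nearest the limit were Isg20 (1.72 FPKM) and Ifit2 (1.81 FPKM) above it, and Irf7 and Gbp3 (0.609 FPKM) below it. Of 19 interferon genes, 17 were listed at 0 in every library, and the highest single value was 0.23 FPKM.

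**Figure D2:**
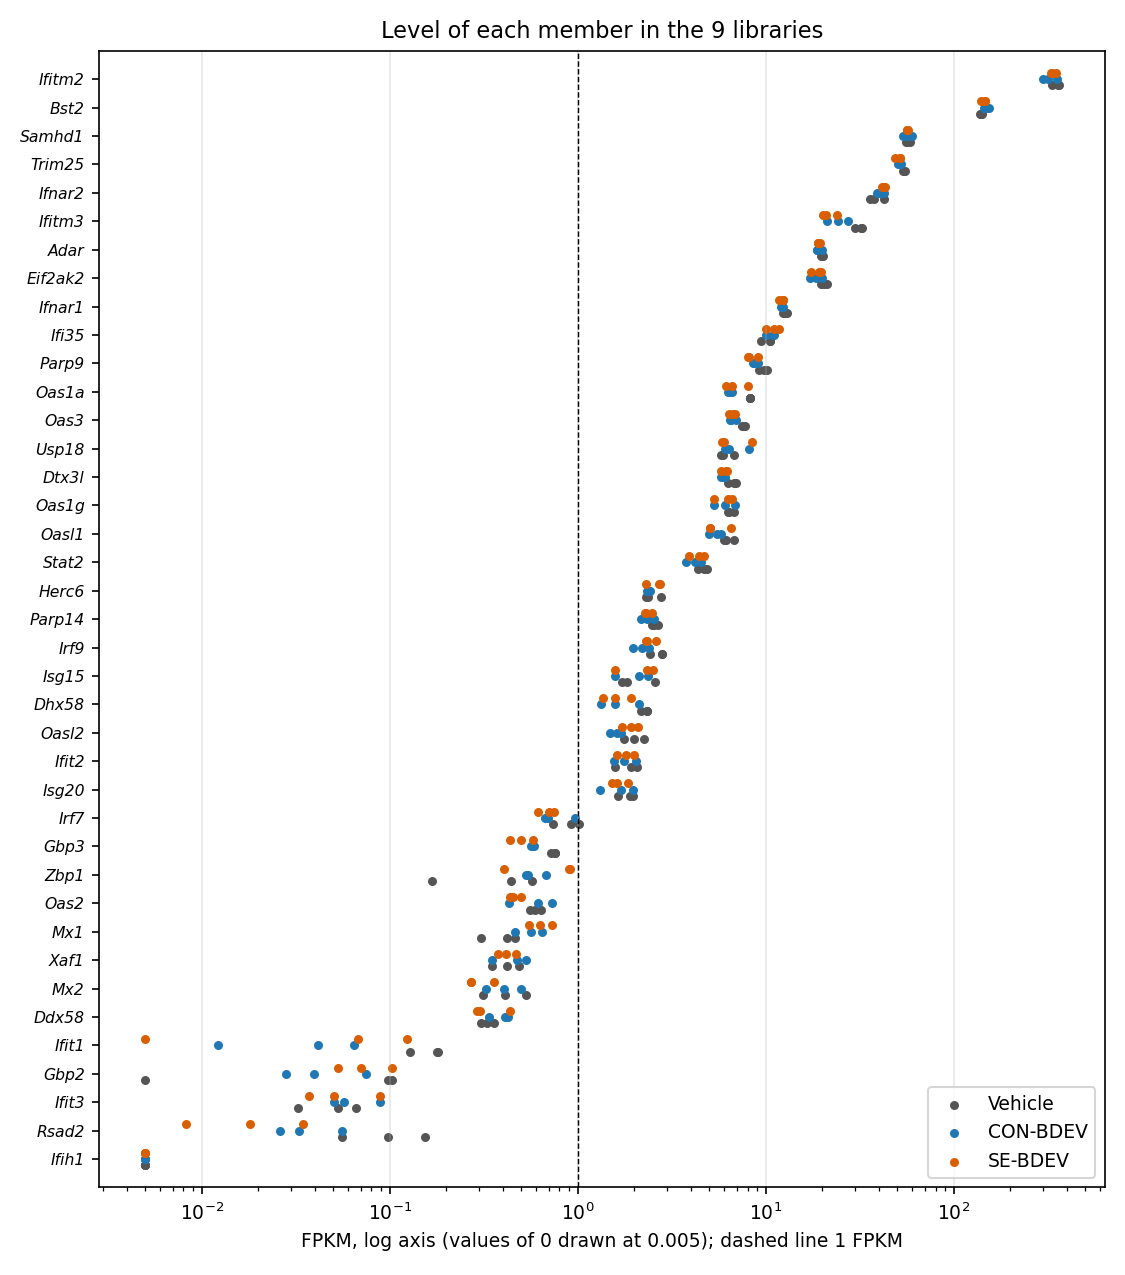
FPKM of each of the 39 members in the 9 libraries on a log axis, with 1 point per library coloured by group, values of 0 drawn at 0.005, and the 1 FPKM limit dashed. Levels span from Ifitm2 (mean 337 FPKM) to Ifih1 (0 in all libraries), and the points of the 3 groups overlap for many members.

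With CON-BDEV, 2 of 26 expressed members were lower than with Vehicle and 0 were higher. These were Ifitm3, a relative of Ifitm2 that guards endosomes against viruses, and Oas1a, an oligoadenylate synthetase that detects double-stranded RNA and makes the messenger that switches on RNase L. With SE-BDEV, 2 of 26 were lower, Ifitm3 again and Dhx58 (LGP2), a cytosolic RNA sensor that tunes RIG-I and MDA5 signalling, and 0 were higher. Calls are at an adjusted p below 0.05 (limma on log2(FPKM + 1), Benjamini-Hochberg over all genes kept). In the comparison of CON-BDEV with Vehicle, 5.67% of all 10535 genes tested were called, 1.86% as lower and 3.81% as higher, and with SE-BDEV 11.9%, 5.14% as lower and 6.76% as higher. Counts of 2 of 26 are too few to set the members apart from these shares. In the authors' deposited table the same genes had q below 0.05, 2 of 34 members tested in each comparison, where 4.32% and 5.36% of all genes tested did. The 2 comparisons share the Vehicle libraries and are not independent.

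Among expressed members, Ifitm3 had the largest log2 fold change of FPKM + 1 in both comparisons. In the authors' deposited table, which adds no 1, Dhx58 had the larger value with CON-BDEV (-0.45). Ifitm3 levels were 32.5, 29.7 and 32.3 FPKM in the Vehicle libraries, 24.3, 27.3 and 21.2 FPKM with CON-BDEV, and 20.8, 20.1 and 23.8 FPKM with SE-BDEV. All 6 vesicle libraries lay below the lowest Vehicle library, and the vesicle groups overlapped each other. The means were 31.5 ± 1.58, 24.2 ± 3.03 and 21.6 ± 1.97 FPKM (SD, n = 3 per group). The log2 fold change on the log2(FPKM + 1) scale was -0.37 (SE 0.082, limma adjusted p = 0.0366) with CON-BDEV and -0.53 (SE 0.065, limma adjusted p = 0.00134) with SE-BDEV. In the authors' deposited table the values for Ifitm3 were -0.376 (q = 0.0383) and -0.542 (q = 0.00196). About 700 fragments per library stood behind the Vehicle value, and 10% of the 50-base windows of its transcripts also occur in another gene. Its locus in the deposited tables is chr7:148195489-148196643 (mm9). With SE-BDEV Ifitm3 was called without any 1 of the 6 libraries. With CON-BDEV it was called in 2 of 6 such fits and lost without CON-BDEV replicate 3 or any 1 Vehicle library (limma adjusted p up to 0.143). It was lost as well when low genes were kept and when the replicate number was used as a block. The same held with the number that opens the library name code as a block (limma adjusted p up to 0.112 in these settings).

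Ifitm2 was not called, although its level is far higher. It stood at 363, 332 and 358 FPKM in Vehicle, 355, 317 and 298 FPKM with CON-BDEV, and 330, 332 and 350 FPKM with SE-BDEV. The groups overlapped, and the log2 fold changes were -0.12 (95% interval -0.27 to 0.027) and -0.055 (-0.15 to 0.044). The coding transcripts of Ifitm2 and Ifitm3 are 80.9% identical over aligned positions, and how the counting treated reads that match both is not given in the sources used here. Bst2 stood at 138, 141 and 139 FPKM in Vehicle, 149, 145 and 154 FPKM with CON-BDEV, and 146, 139 and 146 FPKM with SE-BDEV. The 3 CON-BDEV libraries lay above all Vehicle libraries, by 0.098 on the log2 scale, which did not pass the test (limma adjusted p = 0.165).

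**Figure D3:**
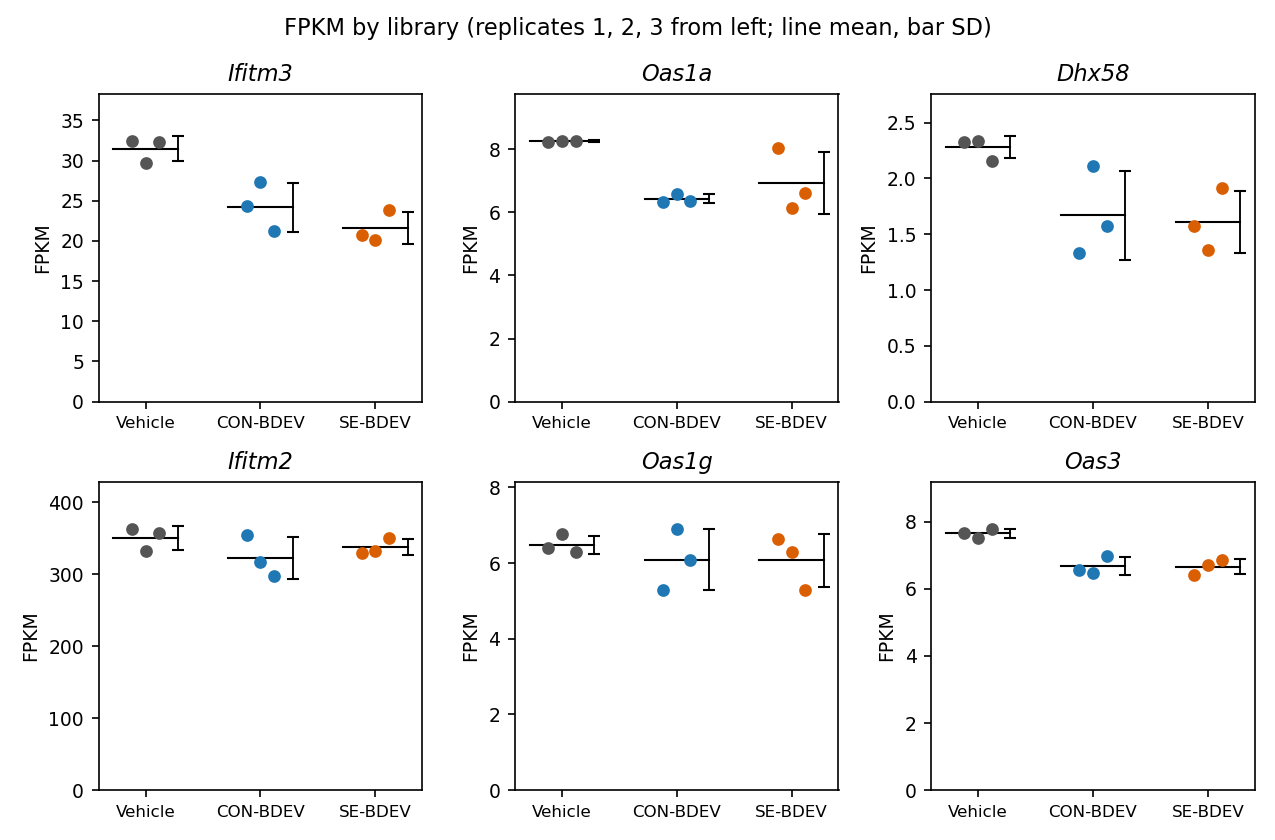
FPKM per library (points, replicates 1, 2 and 3 from the left) with group mean (line) and SD (bar, n = 3) for Ifitm3, Oas1a and Dhx58, which were called in at least 1 comparison, and for Ifitm2, Oas1g and Oas3, which were not. Axes start at 0. The Ifitm3 points of both vesicle groups lie below all Vehicle points, whereas for Ifitm2 and Oas1g the groups overlap.

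The OAS family, enzymes that sense double-stranded RNA and relatives that have lost the activity, had 5 expressed members of 6. Each of the 5 had a log2 fold change below 0 against Vehicle in both comparisons, but only Oas1a with CON-BDEV passed the test. Oas1a stood at 8.22, 8.27 and 8.27 FPKM in Vehicle, 6.32, 6.59 and 6.37 FPKM with CON-BDEV, and 8.02, 6.13 and 6.61 FPKM with SE-BDEV. The CON-BDEV libraries were low together, and with SE-BDEV replicate 1 lay near Vehicle and the other 2 near CON-BDEV. The log2 fold change was -0.32 (SE 0.051, limma adjusted p = 0.012) with CON-BDEV and -0.23 (SE 0.08, limma adjusted p = 0.097) with SE-BDEV. In the authors' deposited table Oas1a had q = 0.0455 and q = 0.187. The CON-BDEV call was lost without CON-BDEV replicate 3 or any 1 Vehicle library (limma adjusted p up to 0.0652), while the log2 fold change stayed between -0.32 and -0.31 in those 4 fits.

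Oas1a (chr5:121346266-121357534, mm9) lies near Oas1g (chr5:121326151-121337622), and 57.6% of the 50-base windows of Oas1a transcripts also occur in another gene, nearly all of them in Oas1g. Reads could have been split between them, so both values are uncertain. Oas1g stood at 6.39, 6.76 and 6.3 FPKM in Vehicle, 5.29, 6.9 and 6.09 FPKM with CON-BDEV, and 6.63, 6.29 and 5.29 FPKM with SE-BDEV, and the groups overlapped. Summed, a setting added after the values were seen, the pair stood at 14.6, 15 and 14.6 FPKM in Vehicle, 11.6, 13.5 and 12.5 FPKM with CON-BDEV, and 14.6, 12.4 and 11.9 FPKM with SE-BDEV. The sums of the CON-BDEV libraries all lay below Vehicle, and the log2 difference of the sums was -0.22 with CON-BDEV and -0.18 with SE-BDEV, with no test.

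Oas3, the synthetase that makes the longest products, stood at 7.66, 7.5 and 7.78 FPKM in Vehicle, 6.55, 6.48 and 6.98 FPKM with CON-BDEV, and 6.4, 6.72 and 6.85 FPKM with SE-BDEV. Both vesicle groups lay below Vehicle without overlap, by -0.17 (SE 0.054, limma adjusted p = 0.0983) and -0.18 (SE 0.05, limma adjusted p = 0.0511), and neither passed the test. Oasl1, a repressor of Irf7 translation, had log2 fold changes of -0.18 and -0.17, and Oasl2, an OAS-like antiviral protein, of -0.21 and -0.048, and the lowest limma adjusted p of these was 0.168. Oas2 was below the 1 FPKM limit.

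Dhx58 was the only 1 of 4 nucleic acid sensors that was expressed. It stood at 2.33, 2.34 and 2.16 FPKM in Vehicle, 1.33, 2.11 and 1.57 FPKM with CON-BDEV, and 1.57, 1.36 and 1.91 FPKM with SE-BDEV. All vesicle libraries were below all Vehicle libraries, the closest being CON-BDEV replicate 2. The log2 fold change was -0.31 (SE 0.107, limma adjusted p = 0.129) with CON-BDEV and -0.33 (SE 0.09, limma adjusted p = 0.0436) with SE-BDEV. In the authors' deposited table Dhx58 (chr11:100556198-100565585, mm9) had q = 0.0566 and q = 0.021. Its call rests on about 180 fragments per library in Vehicle and 121 with SE-BDEV, and it was lost without SE-BDEV replicate 1 or 2 or any 1 Vehicle library (limma adjusted p up to 0.139). It was lost as well when low genes were kept, with the replicate number or the library code number as a block and with all 9 libraries in 1 fit (limma adjusted p up to 0.0955).

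The receptor and its transcription factors were not called in either comparison. Ifnar1 stood at 12.4, 13.0 and 12.6 FPKM in Vehicle, 12, 12.2 and 12.3 FPKM with CON-BDEV, and 12.4, 12.3 and 11.7 FPKM with SE-BDEV, with log2 fold changes of -0.054 and -0.060. Ifnar2 had log2 fold changes of 0.077 and 0.13, and its groups overlapped. Stat2 changed by -0.12 and -0.083 and Irf9 by -0.20 and -0.10 on the log2 scale, with limma adjusted p of 0.171 and above. Of these, Ifnar1 was lower than Vehicle without overlap in both comparisons, with SE-BDEV by less than the printed digits. Irf9 was so with CON-BDEV only, at 1.98, 2.38 and 2.2 FPKM against 2.8, 2.41 and 2.8 FPKM.

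No double-stranded RNA enzyme or nuclease was called. Eif2ak2 (PKR), a kinase that halts translation, had log2 fold changes of -0.13 and -0.12, and Adar, which converts adenosine to inosine in RNA, of -0.046 and -0.052. Both lay below Vehicle without overlap with SE-BDEV, and their limma adjusted p there were 0.18 (Eif2ak2) and 0.427 (Adar). Samhd1, which breaks down deoxynucleotides, averaged 56.8 ± 1.38 FPKM in Vehicle, 56.5 ± 3.21 with CON-BDEV and 56.5 ± 0.73 with SE-BDEV (SD, n = 3 per group). Its 95% interval for the log2 fold change with SE-BDEV was -0.089 to 0.073. Isg20, an exonuclease, had log2 fold changes of -0.10 and -0.085, and Ifit2, a translation inhibitor, of -0.036 and -0.027.

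Of 7 expressed members of the ISG15, ubiquitin and ADP-ribosyl group, 0 were called. Trim25, a ubiquitin ligase that activates RIG-I, was narrow within groups, at 54.7, 54.0 and 54.1 FPKM in Vehicle, 50.8, 51.5 and 52.4 FPKM with CON-BDEV, and 51.7, 51.5 and 48.6 FPKM with SE-BDEV. The vesicle libraries lay below Vehicle without overlap, by -0.073 and -0.099 (limma adjusted p of 0.28 and 0.129). Parp9, an ADP-ribosyl protein, had log2 fold changes of -0.13 and -0.18 (limma adjusted p of 0.177 and 0.076), and its partner ligase Dtx3l of -0.14 and -0.13. These 2 are neighbours and share 1 merged locus in the deposited tables.

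Usp18, the protease that removes ISG15 and dampens receptor signalling, had log2 fold changes above 0 that did not pass. It stood at 6.74, 5.9 and 5.8 FPKM in Vehicle, 6.04, 6.39 and 8.17 FPKM with CON-BDEV, and 8.47, 6.02 and 5.87 FPKM with SE-BDEV. In each vesicle group 1 library was high and the other 2 were within the Vehicle range or near it, and the log2 fold changes were 0.13 and 0.11. Isg15 stood at 2.59, 1.72 and 1.83 FPKM in Vehicle, 1.57, 2.11 and 2.37 FPKM with CON-BDEV, and 2.52, 1.57 and 2.33 FPKM with SE-BDEV. The 3 groups overlapped, and the 95% intervals of its log2 fold changes, -0.31 to 0.28 and -0.27 to 0.35, were wide. Parp14, Herc6 and Ifi35 had log2 fold changes between -0.090 and 0.096.

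**Figure D4:**
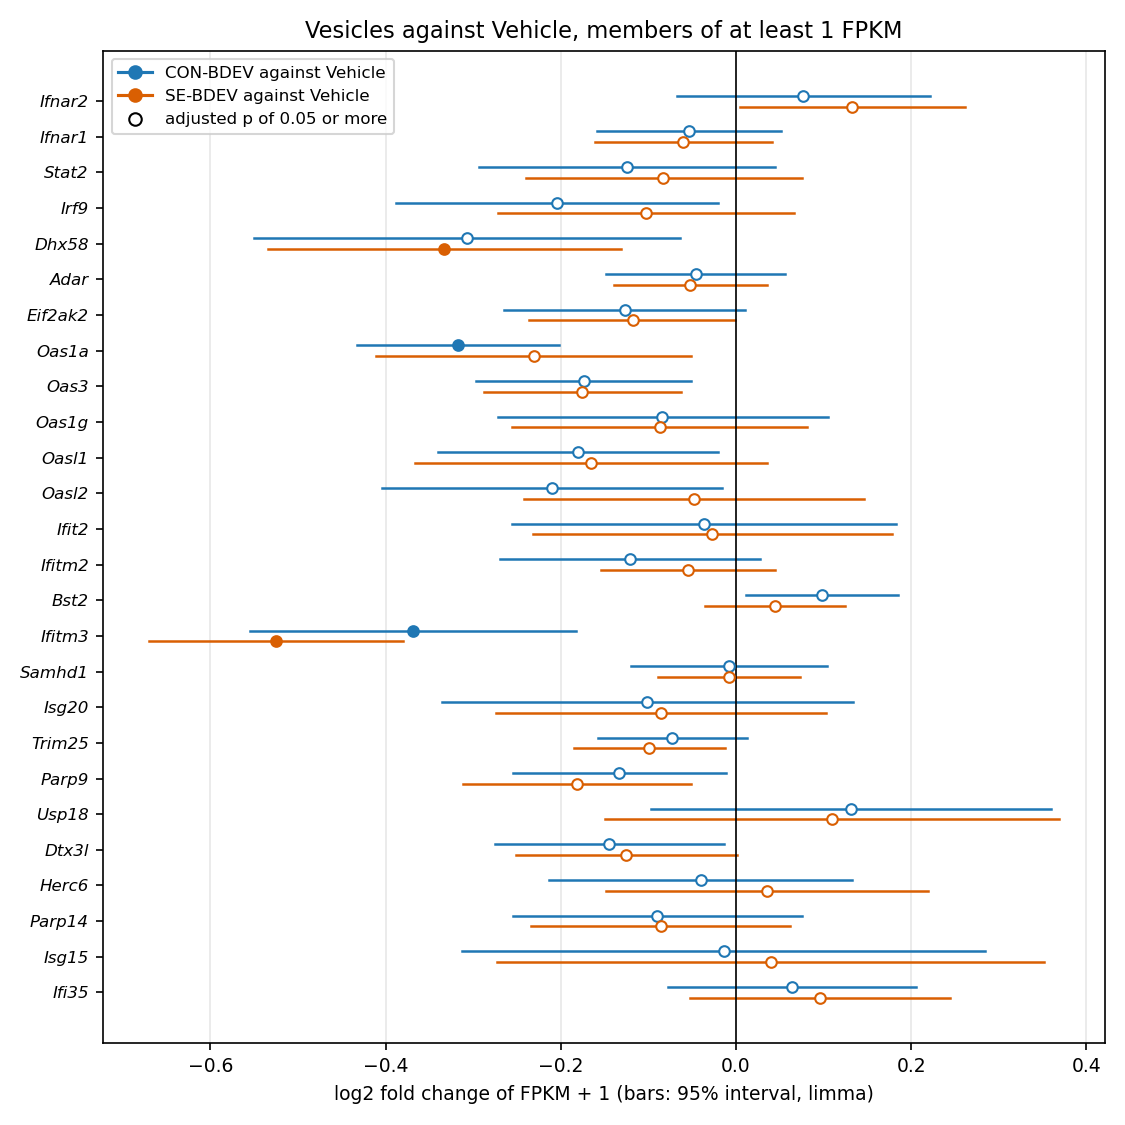
Log2 fold change of FPKM + 1 against Vehicle for the 26 expressed members, ordered by role, with the 95% interval of limma. Filled points have an adjusted p below 0.05: Ifitm3 and Oas1a with CON-BDEV, Ifitm3 and Dhx58 with SE-BDEV. Most points lie left of 0, between 0 and -0.21.

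Small differences below 0 were frequent among the members. Against Vehicle, 22 of 26 members (84.6%) had a log2 fold change below 0 with CON-BDEV, compared with 48.0% of all genes tested, and 20 of 26 (76.9%) with SE-BDEV, compared with 50.2%. The median log2 fold change was -0.096 with CON-BDEV and -0.084 with SE-BDEV, where the medians over all genes tested were 0.005 and -0.001. The lean was weaker outside the listed members. Of 63 other expressed genes of the pathway, 58.7% were below 0 with CON-BDEV and 49.2% with SE-BDEV (medians -0.014 and 0.003). For the 34 other interferon-stimulated genes among them the shares were 61.8% and 55.9% (medians -0.046 and -0.03). With CON-BDEV, 11 members lay below Vehicle without overlap and 1 (Bst2) above, and 12.7% and 16.6% of all genes did so. With SE-BDEV the counts were 11 and 0, with 16.3% and 16.5% of all genes. At an unadjusted p below 0.05, 9 members were lower and 1 higher with CON-BDEV (9.63% and 13.9% of all genes), and 7 and 1 with SE-BDEV (13.4% and 14.0%). The members had been listed with such results in view, so these shares describe them only.

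Most members lay below their Vehicle mean in every vesicle library. Counted against the Vehicle mean, 20 of 26 members were lower in each of the 3 CON-BDEV libraries. In the SE-BDEV libraries the counts were 19, 20 and 20. The Vehicle libraries had 10, 16 and 12, but they make up that mean, so their counts are no contrast to the others. All vesicle libraries were set against the same Vehicle mean, so their counts are not independent of each other. The median deviation of the members was -0.082, -0.093 and -0.086 on the log2 scale with CON-BDEV and -0.033, -0.075 and -0.066 with SE-BDEV. Over all genes the median ran from -0.004 to 0.014 in these libraries. Summed FPKM of the 26 members, which Ifitm2 and Bst2 dominate, overlapped between groups, at 825, 784 and 815 in Vehicle, 805, 759 and 752 with CON-BDEV, and 778, 768 and 796 with SE-BDEV. The median coefficient of variation within a group was 4.81% in Vehicle, 7.26% with CON-BDEV and 7.39% with SE-BDEV.

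**Figure D5:**
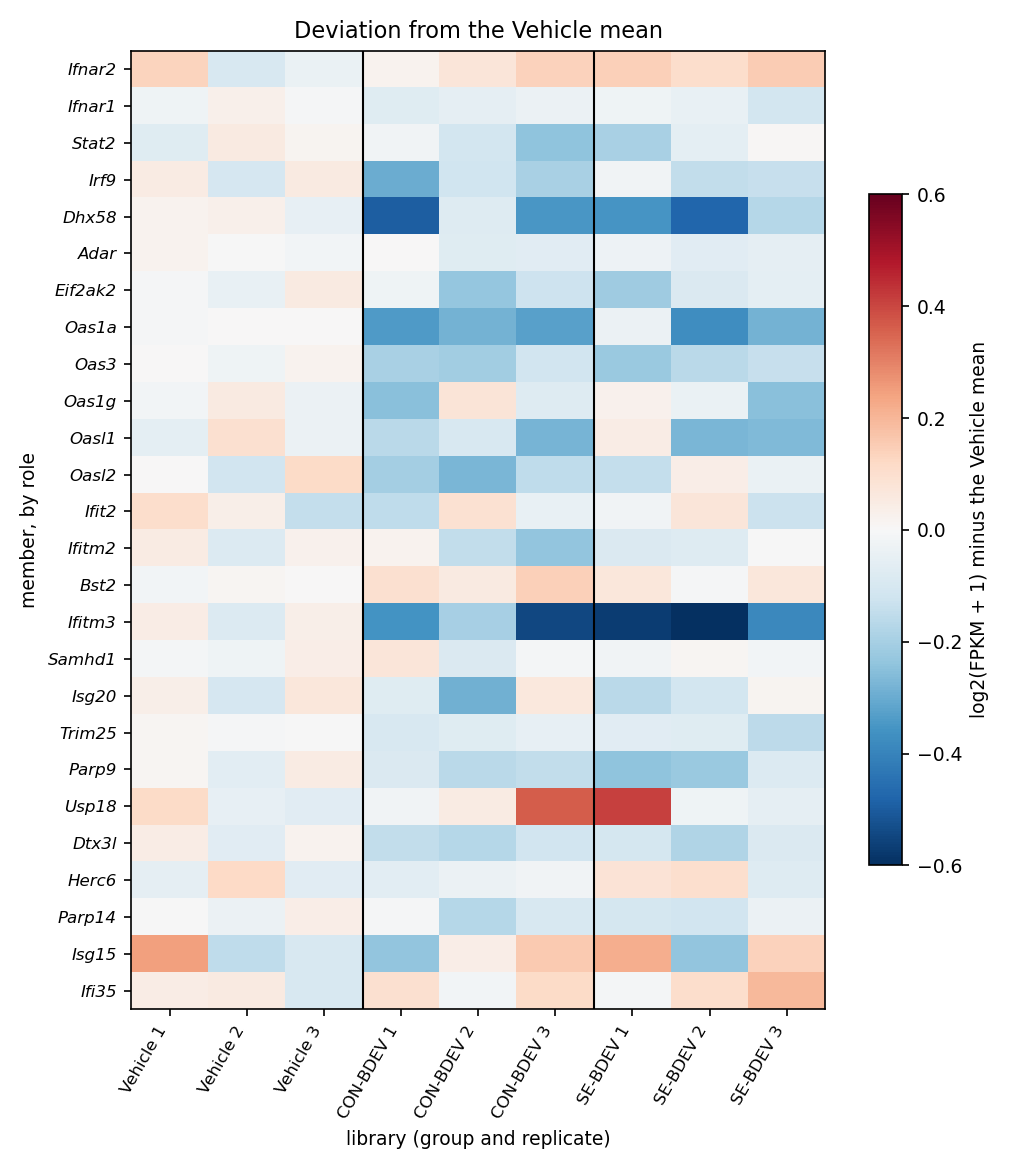
Deviation of each expressed member from its Vehicle mean on the log2(FPKM + 1) scale, by library (columns) and member (rows, by role). Blue is lower and red higher. Ifitm3, Oas1a and Dhx58 hold the darkest blue cells in the vesicle libraries, and Usp18 is red in CON-BDEV replicate 3 and SE-BDEV replicate 1.

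A number opens each library's name code, 1 or 2, whose meaning the labels do not give. Within number 1 the Ifitm3 difference was -0.34 with CON-BDEV and -0.55 with SE-BDEV, and within number 2 it was -0.41 and -0.54. Oas1a differed by -0.34 and -0.31 with CON-BDEV. With SE-BDEV Oas1a differed by -0.035 within number 1 and -0.33 within number 2. These within-number values have 1 or 2 libraries a side and no test. Summed levels of marker lists of other cell types were low and partly differed between the groups. The summed FPKM of the 15 neuroblastoma and neuron markers was 3.22 to 3.77 in Vehicle, 3.79 to 5.24 with CON-BDEV and 4.13 to 4.45 with SE-BDEV, nearly all of it Elavl4, with Th, Dbh and Mycn at 0. The sum of 6 endothelial markers was 5.76 to 6.28, 4.96 to 6.02 and 5.01 to 5.7 FPKM, nearly all of it Vwf (mean 5.5 FPKM). That of 6 astrocyte markers was 0.86 to 1.02, 0.7 to 0.928 and 0.747 to 0.858 FPKM, most of it Aldh1l1 (mean 0.566 FPKM). SE-BDEV lay narrowly below Vehicle in both sums. The astrocyte marker Slc1a2 went the other way, with a mean of 0.288 FPKM with SE-BDEV against 0.215 FPKM in Vehicle. The sum of 6 oligodendrocyte markers overlapped (2.08 to 2.25, 1.98 to 2.51 and 2.12 to 2.61 FPKM). The sum of the 14 microglial markers overlapped (2400 to 2500, 2410 to 2500 and 2440 to 2590 FPKM). Their part in the differences above was not tested.

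SE-BDEV did not differ detectably from CON-BDEV in any member. In 1 limma fit of all 9 libraries 0 of 26 members were called, as were 0 of all 10532 genes (0.0%), and at an unadjusted p below 0.05 there were 0 members and 4.83% of all genes. The Ifitm3 log2 difference was -0.16 (95% interval -0.35 to 0.034), that of Dhx58 -0.025 (-0.27 to 0.22) and that of Oas1a 0.086 (-0.082 to 0.25). Of the 26 members, 10 were below 0, as were 53.0% of all genes, and the median was 0.009. Oasl2 was the only member whose groups did not overlap, at 1.72, 2.08 and 1.91 FPKM with SE-BDEV against 1.61, 1.48 and 1.7 FPKM with CON-BDEV (log2 difference 0.16, limma adjusted p = 0.999), where 2.74% of all genes were higher without overlap. With intervals that reach -0.35 for Ifitm3 and -0.27 for Dhx58, the 2 preparations are not shown to act alike.

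Members below 1 FPKM were fitted only with the limit removed, and Ifih1, at 0, not at all. Of these 13, Gbp3, a GTPase that attacks vacuoles of intracellular pathogens, was called lower with SE-BDEV in that setting (limma adjusted p = 0.0416), though its level was at most 0.761 FPKM. It stood at 0.761, 0.722 and 0.757 FPKM in Vehicle, 0.563, 0.588 and 0.577 FPKM with CON-BDEV, and 0.435, 0.58 and 0.498 FPKM with SE-BDEV, with both vesicle groups below all Vehicle libraries. The authors' deposited table gave Gbp3 q = 0.438 and q = 0.0943. Mx1, a GTPase that traps viral ribonucleoproteins, stood at 0.305, 0.464 and 0.423 FPKM in Vehicle, 0.643, 0.464 and 0.563 FPKM with CON-BDEV, and 0.633, 0.551 and 0.728 FPKM with SE-BDEV. Both vesicle groups were higher without overlap, with CON-BDEV by less than the printed digits, but neither passed (limma adjusted p of 0.241 and 0.0837). The authors' deposited table gave Mx1 log2 fold changes of 0.488 (q = 0.321) and 0.683 (q = 0.0577). Ifit1 and Rsad2 were lower with vesicles without overlap, but they rest on about 14 and 13 fragments per library in Vehicle and on about 2 to 5 with vesicles, and neither passed the test. Zbp1, a sensor of Z-form nucleic acids, ran from 0.167 to 0.906 FPKM, and its groups overlapped.

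Of 104 other genes of the pathway, 63 were expressed and tested. With CON-BDEV 2 were higher and 2 lower, and with SE-BDEV 5 were higher and 4 lower. Of all genes, 3.81% and 1.86% were so called with CON-BDEV, and 6.76% and 5.14% with SE-BDEV, so these few genes are named for their roles and not as a pattern of the pathway. With 1 library left out, the SE-BDEV calls of Tlr7, Ifi30 and Ifi27l2a were kept in 6 of 6 fits. Tyk2, a kinase of the receptor, was lower with SE-BDEV (-0.22, limma adjusted p = 0.0207, called in 4 of 6 fits with 1 library left out and not in the authors' deposited table), and Jak1 was not called. With CON-BDEV the Tyk2 value was -0.17 and did not pass (limma adjusted p = 0.104). Among 10 tested genes for the induction of interferon, Tlr7, an endosomal receptor for single-stranded RNA, was higher with both preparations. It stood at 18.8, 20.4 and 21.3 FPKM in Vehicle, 29.4, 24.6 and 30.9 FPKM with CON-BDEV, and 31.6, 27.5 and 27.1 FPKM with SE-BDEV, with no overlap of vesicles and Vehicle. The log2 fold changes of Tlr7 were 0.47 (limma adjusted p = 0.0178) and 0.49 (limma adjusted p = 0.00217), and the former was called in 2 of 6 fits with 1 library left out. With SE-BDEV the kinase Tbk1 was higher (0.16) and its relative Ikbke lower (-0.27), and Socs3, an inhibitor of cytokine signalling, was higher (0.18). With 1 library left out these were called in 0, 2 and 1 of 6 fits, and in the authors' deposited table Tbk1 had q = 0.378, Ikbke q = 0.0394 and Socs3 q = 0.28. The CON-BDEV values of Tbk1, Ikbke and Socs3 were of like size (0.17, -0.26 and 0.16) but did not pass (limma adjusted p of 0.123, 0.0562 and 0.0774).

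Among 34 tested other interferon-stimulated genes, Ifi30, a lysosomal reductase for antigen processing, was higher with both (0.30 and 0.24) and Ifi27l2a, a small protein of the Ifi27 family, lower with both (-0.31 and -0.66). With CON-BDEV these were called in 4 and 2 of 6 fits with 1 library left out. In the authors' deposited table Ifi30 had q = 0.0166 and q = 0.0697. Ifi27l2a stood at 7.92, 7.99 and 7.13 FPKM in Vehicle, 6.36, 5.67 and 6.03 FPKM with CON-BDEV, and 3.92, 4.27 and 5.36 FPKM with SE-BDEV, with no overlap between any of the groups. SE-BDEV against CON-BDEV, its log2 difference of -0.355 was not called (limma adjusted p = 0.991). In that comparison 547 of 10532 genes were lower without overlap. The authors' deposited table gave Ifi27l2a q = 0.83 and q = 0.418, under the locus it shares with Ifi27. Ifitm6, a relative of Ifitm3, was lower with CON-BDEV (-0.41), Ifi27 lower and Lgals3bp, a secreted glycoprotein, higher with SE-BDEV (-0.24 and 0.26). With 1 library left out they were called in 1, 1 and 4 of 6 fits, and in the authors' deposited table Ifitm6 had q = 0.027, Ifi27 q = 0.183 and Lgals3bp q = 0.0999. With SE-BDEV the Ifitm6 value was -0.43, which did not pass (limma adjusted p = 0.0633). It was called in 3 of 6 fits with 1 library left out and had q = 0.0128 in the authors' deposited table. With CON-BDEV Ifi27 and Lgals3bp had -0.10 and 0.14, not called (limma adjusted p of 0.488 and 0.242). No gene of the interferon gamma and lambda receptors was called.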

How the data were processed

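The series holds 9 libraries of polyA RNA (3 groups of 3, grouped by their titles), made with a directional kit, per the labels. The authors used TopHat2 and Cuffdiff with build mm9, per the submitters' processing notes, and versions and annotation are not given in the sources used here. The FPKM tables deposited by the authors list 24318 genes per library. From Cuffdiff, the authors also deposited log2 fold changes, a test score, p-values and q-values, printed here only where named. Depth per library was estimated at 29200000 to 33800000 fragments, so that 1 FPKM stands for 29.2 to 33.8 fragments per kilobase, and this is an estimate because no read counts were used. Fragments behind a gene were estimated from this depth, the mean FPKM and the length of its longest coding transcript (GRCm38). The transcript lengths behind the deposited FPKM are not given in the sources used here, so these fragment numbers are approximate.

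The tests used limma 3.58.1 in R 4.3.3 (eBayes with a trend, 2-sided, Benjamini-Hochberg, threshold 0.05) on FPKM after adding 1 and taking log2. Genes under 1 FPKM on average in the fitted libraries were left out. Fold changes on this scale understate those of low genes. Each vesicle group was compared with Vehicle in its own table, and the vesicle groups in 1 joined fit of 9 libraries. An exact permutation test of 3 against 3 cannot give a p below 0.1. The members, gene lists and settings were chosen with earlier results of these data known. Genes were named as listed members, or as called genes of the pathway lists. Alternatives were another pseudocount, no filter, other scalings, a replicate or library code block, the authors' q-values and leaving out each library. Promoter and transcript sequences (GRCm38) were read with Python 3.11.15 and Biopython 1.88.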

Additional observations from a re-analysis of the deposited data

How the results depend on the processing

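With CON-BDEV the count of members called lower, 2, fell to 1 with no filter on low values, with the replicate number as a block and with the library code number as a block (Ifitm3 lost), and ran from 0 to 3 when 1 library was left out. Without CON-BDEV replicate 3 or any 1 Vehicle library it was 0. The median of the members, -0.096, was -0.122 with a pseudocount of 0.1 and -0.122 in the authors' table, and ran from -0.123 to -0.087 without 1 library. With SE-BDEV the count of 2 fell to 1 with either block or all 9 libraries in 1 fit (Dhx58 lost), was 2 with no filter (Gbp3 in place of Dhx58), and ran from 1 to 3 without 1 library. Between the vesicle groups the count stayed 0 in every setting, and the median of 0.009 ran from 0.0 to 0.027 without 1 library. Over all genes, the CON-BDEV calls numbered 597, 364 with the replicate block, 275 with the library code block, 112 with no filter and 84 to 1067 without 1 library. The SE-BDEV calls numbered 1253, 726 with no filter and 501 to 1311 without 1 library. The cause was not tested. Replicate numbers showed no pairing (mean correlation of deviations -0.04, and 3 of 9 libraries were closest to their own number), so the block is only an alternative.

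Of 78 results for single genes (57 of members and 21 of other pathway genes), 17 were called as reported and 26 in at least 1 setting (10 of members), and 0 of these changed sign. In 12 others the sign changed, with values of at most 0.109. Samhd1 with CON-BDEV was 0.002 with the library code block, Isg15 with CON-BDEV 0.011 after quantile normalization, Ifit2 with SE-BDEV 0.009 with the library code block, and Oas3 between the vesicle groups 0.004 with median-of-ratios scaling. Leaving out 1 library gave, with CON-BDEV, -0.107 to 0.022 for Ifit2, -0.049 to 0.031 for Samhd1, -0.099 to 0.109 for Isg15 and -0.074 to 0.019 for Herc6. With SE-BDEV it gave -0.106 to 0.009 for Oasl2, -0.098 to 0.027 for Ifit2, -0.021 to 0.012 for Samhd1, -0.050 to 0.178 for Isg15 and -0.039 to 0.193 for Usp18. Between the vesicle groups it gave -0.011 to 0.158 for Oas1a, -0.119 to 0.089 for Dhx58 and -0.020 to 0.027 for Oas3. About 51 fragments per library stood behind Isg15 in Vehicle, and the part of depth in its spread was not tested.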
